A study of Mus musculus with 18 samples.

Results

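The comparison described here is adolescent THC against vehicle in microglia of 16p11dup mice, which carry a duplication of the mouse region that matches human 16p11.2. It rests on 4 libraries of the group 16p11dup-THC (replicates 17, 18, 20 and 21) and 4 of the group 16p11dup-Veh (replicates 12, 13, 14 and 16). A gene entered the description when it had at least 1 count in at least 4 of these 8 libraries, which held for 10178 of the 22428 genes in the deposited table. Of the 10178 genes, 6644 had a count in all 8 libraries. A mean log2 CPM (the count scaled to a TMM-adjusted library total, on a log scale) of at least 5 held for 3419 of those. These 3419 are called well expressed below. In the remainder of the table, 9492 genes were at 0 counts throughout the 8 libraries and 2758 were counted in 1 to 3 of them.

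Both groups had the same genotype, the same C57BL6/J background and the same age, so the duplication is shared and the labelled difference is the injection. THC, the main psychoactive compound of cannabis, was injected under the skin each day (8 mg/kg) between postnatal days 30 and 51, and the control mice received saline with Cremophor. Microglia were sorted from the medial prefrontal cortex (mPFC) on day 51 as CD11b+/CD45+/P2ry12+ cells. The same study also sequenced microglia of wild-type mice given vehicle (WT-Veh, 6 libraries) or THC (WT-THC, 4 libraries), and these entered the fit to estimate the spread. No source states that each library came from a single mouse, and the labels give no sex. The p-values below therefore measure the spread between these libraries, which may be technical.

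Microglia are the resident macrophages of the brain. They sense damage and microbial products through Toll-like and Fc receptors, engulf debris and synapses, and digest them in lysosomes. Their survival depends on the receptor Csf1r. THC acts through the cannabinoid receptors Cnr1 and Cnr2, which signal through inhibitory G proteins. A sort for P2ry12, a purinergic receptor of resting microglia, keeps cells that still display that receptor.

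The recovered totals of the 8 libraries ran from 7145510 to 12574654 counts. The 38 homeostatic microglia genes in the table were all among the 10178 and summed to 59376–93252 CPM with THC and 52058–89423 CPM with vehicle, so every library expressed the genes of the labelled cell type. Summed markers of other cells were low, and their ranges overlapped between the groups. The 14 neuronal markers came to 74.2–289.8 against 10.3–137 CPM, the 12 oligodendrocyte markers to 14.5–120.5 against 6.61–71.2, the 12 astrocyte markers to 58.4–328 against 215–319.9, and the 16 endothelial and mural markers to 64.9–461 against 131–529.8. The 12 markers of border macrophages came to 392.5–924 against 421–605 CPM, and the 17 markers of monocytes and neutrophils to 0.0919–43.8 against 1.97–326, with the top value in vehicle replicate 12. Of the 16 lymphocyte markers, 12 were at 0 throughout the 8 libraries. In 3 of these lists a marker was higher with THC in limma at an unadjusted p under 0.05, namely Snap25, Clu and Mag. Their log2 fold changes were 4.91, 6.66 and 5.58, and each was chosen for mention after its values were seen. They were 1 of 6 measured neuronal, 1 of 4 astrocyte and 1 of 4 oligodendrocyte genes, against 6.05% of the 10178 genes called in either direction. Of the neuronal genes 4 were above 0 and 2 below, and of the oligodendrocyte genes 3 and 1. With the count models edgeR and DESeq2, 0 and 2 neuronal, 1 and 1 astrocyte and 0 and 1 oligodendrocyte genes were higher. The other 3 measured astrocyte markers did not follow Clu, with log2 fold changes of -2.22 (Aqp4), -0.43 (Slc1a3) and 0.54 (Slc1a2). Snap25, a synaptic protein gene, had 8.02–35.2 CPM with THC and at most 1.27 CPM with vehicle. The part of these cells in the results below was not tested. In bulk libraries such as these, fewer cells of a type and less RNA in each cell cannot be told apart. Vehicle replicate 13 had the most genes detected and vehicle replicate 14 the fewest, with 11590 and 8902. Across the well-expressed genes, Pearson's r of log2 CPM was 0.44–0.49 within the THC group, 0.44–0.70 within the vehicle group and 0.39–0.65 between them (given over genes, which are not replicates).

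No gene reached a Benjamini-Hochberg adjusted p (FDR) under 0.10 in limma over the 22428 genes, and the lowest FDR was 0.77. This was 0% of the table. At an unadjusted p under 0.05, 247 of the 10178 genes were higher with THC (2.43%) and 369 were lower (3.63%). Both directions together made up 6.05%. Over the whole table, most of whose other genes had few or no counts, the shares were 1.22% higher, 1.99% lower and 3.21% in all. The count models placed more genes under the FDR threshold. edgeR's quasi-likelihood test called 17 genes and DESeq2 818 genes in the whole table, of which 17 and 359 were among the 10178. Fold changes below are therefore measurements with their spread, and "higher" and "lower" name the direction of the fitted difference.

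**Figure D1:**
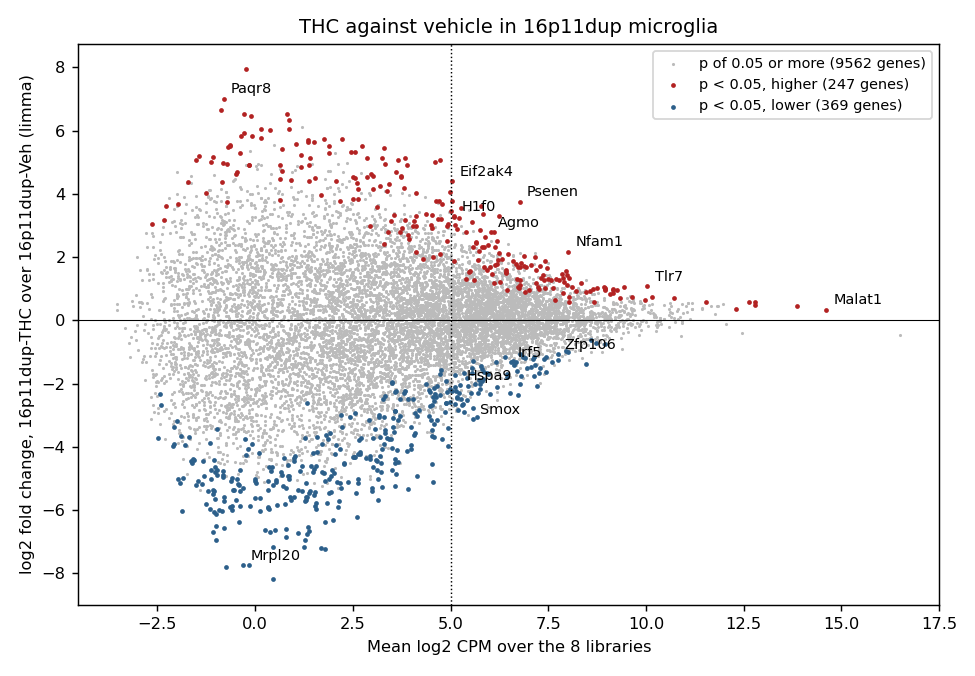
The log2 fold change of 16p11dup-THC over 16p11dup-Veh (vertical axis, limma) for each of the 10178 genes against its mean log2 CPM over the 8 libraries (horizontal axis). Red points are the 247 genes higher and blue points the 369 genes lower at an unadjusted p under 0.05, and the dotted line marks a mean of 5. Fold changes spread widely on the left, where genes have few counts, and narrow to the right.

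The direction of the calls differed with expression level. Among the 3419 well-expressed genes 126 were higher (3.69%) and 76 lower (2.22%), together 5.91%, with a median log2 fold change of 0.11. Among the 3534 genes with a count in 4 to 7 of the 8 libraries 64 were higher and 173 lower, with a median of -0.38. The 3225 genes counted in all 8 libraries at a mean log2 CPM under 5 stood between, with 57 higher, 120 lower and a median of -0.15. The spread differed in the same way. The median SD between THC libraries was 1.03 on the log2 scale for well-expressed genes and 3.64 for the genes counted in 4 to 7 libraries, against 0.86 and 3.26 between vehicle libraries. The split of all 10178 genes into higher and lower rested on vehicle replicate 13. Without it 327 genes were higher and 310 lower. The groups did not overlap, with every THC library above every vehicle library, at 60 well-expressed genes (1.75%), and the reverse held at 38 (1.11%). Over the 10178 genes these shares were 0.983% and 1.9%.

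The well-expressed gene with the smallest p was Agmo, which encodes the monooxygenase that cleaves ether lipids. Agmo had 196, 300.3, 79.6 and 132 CPM in THC replicates 17, 18, 20 and 21, and 37.2, 28.3, 31.0 and 15.7 CPM in vehicle replicates 12, 13, 14 and 16. Every THC library was above every vehicle library. The means were 177 ± 95.1 against 28.0 ± 9.02 CPM (SD, n = 4 each), and the log2 fold change was 2.79 (SE 0.52, unadjusted p = 8.6e-05, FDR = 0.77, limma). An exact two-sided permutation test of mean log2 CPM gave p = 0.029, the smallest that 4 against 4 libraries allow. Any gene without overlap reaches that value, as the 60 higher and 38 lower well-expressed genes did. Since Agmo was chosen by its p in these libraries, the permutation test adds no separate evidence. The difference kept an unadjusted p under 0.05 in all 23 alternative settings. The gene lies on chromosome 12 from 37241641 to 37582202 (GRCm38, GENCODE M21, forward strand).

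**Figure D2:**
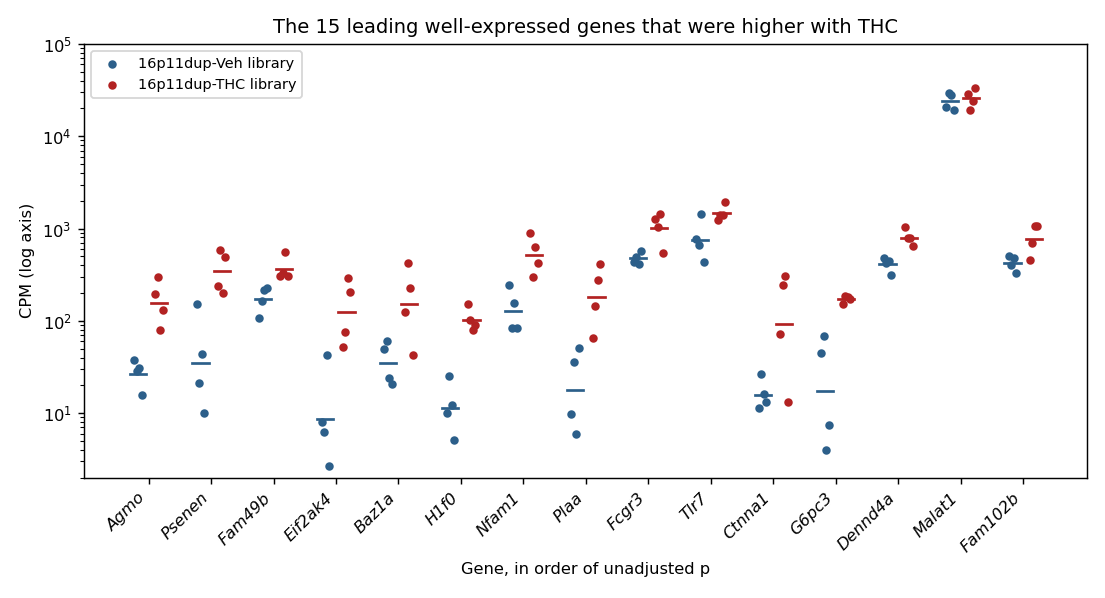
CPM on a log axis for the 15 well-expressed genes with the smallest unadjusted p among those higher with THC. Each point is 1 library (blue 16p11dup-Veh, red 16p11dup-THC, 4 each) and each bar the geometric mean. At 9 of the 15 genes the groups did not overlap, while at Malat1 they overlapped almost fully.

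Of the other leading genes, Nfam1, Fcgr3 and Tlr7 encode receptors of immune cells. Nfam1, an ITAM-bearing membrane receptor that feeds into calcineurin and NFAT signalling, had 902, 297, 629 and 426 CPM with THC and 244, 84.6, 157 and 83.7 CPM with vehicle. The groups were apart, and the log2 fold change was 2.17 (SE 0.58, unadjusted p = 0.0019, limma). Fcgr3, a low-affinity activating receptor for IgG, had 1266, 1049, 1421 and 542 CPM against 439, 488, 416 and 571. THC replicate 21 fell within the vehicle range and the other 3 THC libraries were above it, with a log2 fold change of 1.04 (SE 0.31, unadjusted p = 0.0039, limma). Some recovered counts of Fcgr3 are not whole numbers, since RSEM divided reads shared with similar genes. Tlr7, the endosomal sensor of single-stranded RNA, had 1224, 1414, 1397 and 1939 CPM against 765, 661, 1421 and 437. Vehicle replicate 14 lay within the THC range and the other 3 below it (log2 fold change 1.08, SE 0.33, unadjusted p = 0.0048, limma). Of these genes Tlr7 missed p < 0.05 with DESeq2, and Fcgr3 missed it with the authors' surrogate variables as covariates.

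Eif2ak4, Plaa and Psenen had larger fold changes from lower levels. Eif2ak4 encodes GCN2, the kinase that senses uncharged tRNA and phosphorylates the translation factor eIF2α. It had 52.4, 76.5, 291 and 203 CPM with THC and 7.99, 6.26, 42.8 and 2.70 CPM with vehicle. No libraries overlapped, and the log2 fold change was 4.41 (SE 1.10, unadjusted p = 0.0012, limma). Plaa, a ubiquitin-binding partner of the segregase p97, had 64.6, 143, 276 and 410.1 CPM against 9.73, 35.4, 5.92 and 50.8. The THC libraries were again all above the vehicle libraries (log2 fold change 3.35, SE 0.98, unadjusted p = 0.0038, limma). Psenen encodes PEN-2, a subunit of the γ-secretase complex that contains presenilin. It had 238, 587, 200.5 and 493 CPM against 151, 21.3, 44.2 and 10.0005, with a log2 fold change of 3.75 (SE 0.90, unadjusted p = 0.00084, limma). Exons of Psenen overlap those of U2af1l4, and reads were counted without strand, so the 2 genes cannot be told apart at the overlap. The same limit holds for other genes named in this text. Among them are Irf5 (with Tnpo3), Ctnna1 (Lrrtm2), Csf1r (Hmgxb3), P2ry12 (Med12l), Sult1a1 (Sgf29), Hnrnpab (Phykpl) and Hnrnpm (March2).

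The leading genes also held H1f0, Baz1a and G6pc3. H1f0, the replacement linker histone H1.0 of cells that have stopped dividing, had 151, 101, 79.9 and 89.8 CPM with THC and 9.96, 25.5, 12.1 and 5.16 CPM with vehicle (log2 fold change 3.29, SE 0.87, unadjusted p = 0.0019, limma). Baz1a, a subunit of ISWI chromatin remodellers, had 125, 418, 229 and 43.2 CPM against 49.0, 60.6, 24.1 and 20.9, so that THC replicate 21 lay within the vehicle range (log2 fold change 2.50, SE 0.65). G6pc3, the widely expressed glucose-6-phosphatase of the endoplasmic reticulum, had 154, 185, 183 and 173 CPM with THC. The THC libraries lay close together, with an SD of 14.2 CPM, whereas the vehicle libraries ran from 3.99 to 67.7 CPM (log2 fold change 3.63, SE 1.11). Dennd4a, an exchange factor for Rab10, was at 643–1032 against 317–480.1 CPM and Fam49b, a Rac1-binding protein, at 305–564 against 108–228 CPM, both without overlap. Their log2 fold changes were 0.95 (SE 0.30) and 1.13 (SE 0.27).

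The other 3 leading genes were less separated. Ctnna1, which encodes α-catenin, had 72.2, 245, 309 and 13.04 CPM with THC and 11.3–26.4 CPM with vehicle, and its p was no longer under 0.05 without the covariate for mapped reads. Fam102b ran from 458 to 1079 CPM against 333–503. The long noncoding RNA Malat1 had a fitted log2 fold change of 0.34 (SE 0.11, unadjusted p = 0.0071, limma), but its libraries ran from 19333 to 33646 CPM with THC and from 19395 to 29341 CPM with vehicle. An exact permutation test of the unadjusted levels gave p = 0.63 for Malat1, and the sign turned to -0.12 in a fit of the 8 libraries alone. Agmo, Psenen, Eif2ak4, Baz1a, H1f0, Nfam1, Plaa and G6pc3 were the 8 of these 15 genes that kept p under 0.05 in all 23 alternatives.

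Among well-expressed genes that were lower, Hspa9 had the smallest p. It encodes mortalin, the mitochondrial HSP70 that helps import and fold proteins. Hspa9 had 24.6, 33.5, 9.004 and 14.1 CPM with THC and 65.9, 61.6, 118 and 78.0 CPM with vehicle. Every THC library was below every vehicle library, with means of 20.3 ± 10.9 against 80.9 ± 25.9 CPM (SD, n = 4 each). The log2 fold change was -2.06 (SE 0.45, unadjusted p = 0.00038, FDR = 0.83, limma; exact permutation p = 0.029), and only edgeR gave a p of 0.05 or more. Hsp90ab1, a cytosolic HSP90 chaperone, had 384, 359, 310.1 and 299 CPM with THC and 559, 415, 601 and 552 CPM with vehicle. These groups were also apart, with the smaller log2 fold change of -0.70 (SE 0.24, unadjusted p = 0.012, limma). Bag6, which holds misplaced membrane proteins for degradation, had 56.0, 6.35, 33.4 and 18.9 CPM against 153, 78.9, 58.5 and 126. The groups were just apart at Bag6, and its p rose to 0.066 without THC replicate 18.

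**Figure D3:**
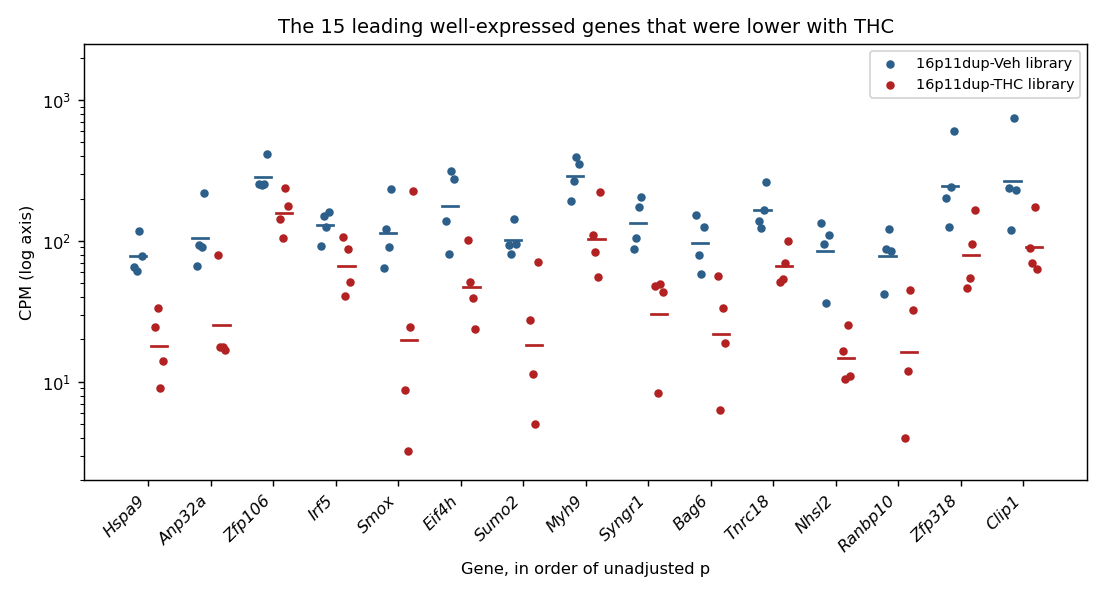
CPM on a log axis for the 15 well-expressed genes with the smallest unadjusted p among those lower with THC. Each point is 1 library (blue 16p11dup-Veh, red 16p11dup-THC, 4 each) and each bar the geometric mean. At 7 of the 15 genes the groups did not overlap, and 1 THC library of Smox lies near the top of the vehicle range.

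Irf5, a transcription factor that switches on cytokine genes downstream of Toll-like receptors, was lower in contrast to Tlr7 and Tlr2. It had 107, 40.4, 88.4 and 51.4 CPM with THC and 92.7, 149.6, 126 and 161 CPM with vehicle. Only THC replicate 17 was within the vehicle range (log2 fold change -1.32, SE 0.36, unadjusted p = 0.0025, limma; exact permutation p = 0.057). Irf5 had p of 0.05 or more with edgeR, without precision weights and when only the 10178 genes were fitted. Tlr2, the receptor for bacterial lipoproteins, had 101, 117, 97.8 and 249 CPM with THC and 74.8, 21.6, 81.1 and 21.99 CPM with vehicle (log2 fold change 1.78, SE 0.65, unadjusted p = 0.015, limma). The Tlr2 groups did not overlap, although the gap between 97.8 and 81.1 CPM was narrow and p was 0.05 or more with edgeR and DESeq2. Of 39 measured genes of Toll-like receptor signalling 2 were higher and 1 lower in limma (7.69% against 6.05% of the 10178). In edgeR 1 was higher and 3 lower, in DESeq2 0 and 4. Their median log2 fold change was -0.13, with 18 above 0 and 21 below, and 0.16 for the 24 well-expressed ones.

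Of the remaining lower genes, Eif4h, a cofactor of the eIF4A helicase, had 102, 51.4, 39.6 and 23.6 CPM with THC and 139, 81.2, 311 and 274 CPM with vehicle. Vehicle replicate 13 lay within the THC range, and the log2 fold change of -2.29 (SE 0.66, unadjusted p = 0.0034, limma) kept p under 0.05 in all 23 alternatives, alone among the 15 lower genes. Sumo2, a small modifier that is attached to proteins, had 27.4, 11.4, 5.05 and 70.8 CPM against 93.8, 81.3, 143 and 95.6 (log2 fold change -2.52, SE 0.74). Anp32a, an acidic nuclear protein that inhibits PP2A, had 17.6, 17.7 and 16.8 CPM in THC replicates 18, 20 and 21 but 79.8 CPM in replicate 17, against 66.1–219 CPM with vehicle (log2 fold change -2.28, SE 0.53). Smox, the spermine oxidase, had 8.69, 3.22 and 24.5 CPM in 3 THC libraries and 226 CPM in replicate 21, against 63.8–234 CPM with vehicle. The log2 fold change of Smox was -3.12 (SE 0.86), the largest in size of the 15. Myh9, the heavy chain of nonmuscle myosin IIA, was at 55.1–224 against 193–393 CPM, and Clip1, which binds growing microtubule ends, at 63.4–175 against 121–744 CPM.

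The other lower genes of this rank were Zfp106, Syngr1, Tnrc18, Nhsl2, Ranbp10 and Zfp318. Their log2 fold changes lay between -1.07 and -2.46. Zfp106, Syngr1, Tnrc18 and Nhsl2 had no overlap between the groups. Syngr1, Nhsl2 and Zfp318 each had p of 0.05 or more without a single library, which was THC replicate 18 for the former pair and vehicle replicate 16 for Zfp318.

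Promoter windows of RefSeq (GRCm38.p6), of 300 bases around each start, were available for 11 of the 15 leading higher and 12 of the 15 leading lower genes. The core GGGCGG of the GC box, on either strand, was in a window of all 12 lower genes and of 5 of the 11 higher genes. It was in 35.6% of all 32817 windows and in 74.1% of the 2660 well-expressed genes with a window. The core GAGGAAG of the PU.1 motif, the master factor of macrophages, was in 4 of the 11 higher genes (Nfam1, Fcgr3, G6pc3 and Dennd4a) and in 0 of the 12 lower ones, against 19.5% of the well-expressed genes. These are matches of letters and were not tested. Windows of 3 genes described above are printed to show them, with the matched letters in capitals: the core of interferon response elements (GAAA, any 2 letters, GAAA) in Agmo (reverse strand, found in 3.43% of all windows), GAGGAAG in G6pc3, and GGGCGG in Irf5, where 5 matches overlap in part.
Agmo, chr12:37241389-37241688, forward strand: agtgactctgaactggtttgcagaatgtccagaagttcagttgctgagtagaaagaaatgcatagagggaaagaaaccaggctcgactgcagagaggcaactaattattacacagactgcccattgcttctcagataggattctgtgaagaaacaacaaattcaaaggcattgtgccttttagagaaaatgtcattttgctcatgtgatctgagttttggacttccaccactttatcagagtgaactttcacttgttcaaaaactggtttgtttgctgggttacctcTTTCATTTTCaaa
G6pc3, chr11:102189449-102189748, forward strand: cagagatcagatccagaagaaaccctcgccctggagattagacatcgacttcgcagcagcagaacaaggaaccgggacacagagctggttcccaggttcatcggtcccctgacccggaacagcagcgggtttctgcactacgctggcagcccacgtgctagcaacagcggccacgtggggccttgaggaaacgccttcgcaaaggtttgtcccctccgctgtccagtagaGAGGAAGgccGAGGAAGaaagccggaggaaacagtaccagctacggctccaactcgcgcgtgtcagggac
Irf5, chr6:29526375-29526674, forward strand: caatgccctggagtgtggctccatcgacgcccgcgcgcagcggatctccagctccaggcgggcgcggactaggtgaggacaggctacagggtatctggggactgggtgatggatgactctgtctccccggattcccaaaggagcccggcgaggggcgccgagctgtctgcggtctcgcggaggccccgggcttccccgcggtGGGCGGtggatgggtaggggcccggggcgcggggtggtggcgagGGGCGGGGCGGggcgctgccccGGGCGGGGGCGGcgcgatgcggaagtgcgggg

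At low counts, 15 genes were counted in all 4 libraries of a group and in none of the other. Paqr8, a membrane progestin receptor, was the only such gene with counts in the THC group, at 19.9, 11.3, 19.8 and 0.435 CPM. The other 14 had counts in the vehicle group alone. Detection leaned the same way beyond these genes. A count in 1 THC and 3 vehicle libraries was found for 201 genes, and in 3 THC and 1 vehicle libraries for 83. Genes detected per library were 9412 to 9770 with THC and 8902 to 11590 with vehicle. The part of detection in the split was not tested. In order of mean level the 5 highest of the 14 genes were Igdcc4, Pard6a, Nhlrc1, Mrpl20 and Tusc2. Mrpl20, a protein of the large mitochondrial ribosomal subunit, had 28.5, 15.2, 48.9 and 1.11 CPM with vehicle and no count in the 4 THC libraries. Its mean of 23.4 ± 20.3 CPM (SD, n = 4) exceeded a floor of 3 counts in each THC library at least 73.3-fold, a bound that covers counting error only. Pard6a, a cell polarity protein, had 42.3, 16.3, 2.07 and 37.2 CPM with vehicle, and Tusc2, a mitochondrial protein encoded by a tumour suppressor candidate, had 14.1, 35.0, 4.82 and 5.32 CPM. Igdcc4 had 473 CPM in vehicle replicate 14 and at most 0.695 CPM in the others, so its mean is that of 1 library. Mrpl20 had counts in all 6 WT-Veh and all 4 WT-THC libraries, with means of 32.5 and 4.596 CPM, whereas Pard6a was counted in 2 of 6 and 2 of 4. These genes were picked by their counts and carry no test.

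For the gene lists below, counts of genes higher and lower are those of limma at an unadjusted p under 0.05, beside 2.43% higher, 3.63% lower and 6.05% in all among the 10178 genes. Of the 38 homeostatic microglia genes measured, 4 were higher and 0 lower, whereas edgeR and DESeq2 each had 0 higher and 1 lower. In limma 27 had a fitted value above 0, with a median log2 fold change of 0.23 against -0.03 for all 10178 genes and 0.11 for the well-expressed ones. They included Csf1r, Tmem119 and Cst3. Tmem119, a surface protein of resident microglia, had 1599, 2058, 2690.4 and 2301 CPM with THC and 931, 1182, 2007 and 1338 CPM with vehicle, where only vehicle replicate 14 entered the THC range (log2 fold change 0.71, SE 0.29, unadjusted p = 0.030, limma). The p of Tmem119 was 0.082 with edgeR and 0.25 with DESeq2. Csf1r was at 5990.4–9825 CPM with THC and 5248–9726 CPM with vehicle, nearly the same range. Its log2 fold change of 0.50 (SE 0.17) had p of 0.05 or more with edgeR, with DESeq2 and without precision weights, and an exact permutation test of the levels gave p = 0.43. For Cst3 the mean was lower with THC, at 15251 ± 3753 against 16039 ± 6579 CPM (SD, n = 4 each), while the fitted log2 fold change was 0.47 (SE 0.21), and the sign turned in edgeR and DESeq2, to -0.21 and -0.23.

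P2ry12 and Itgam, whose proteins were used in the sort, and the common microglia markers Aif1 and Cx3cr1 gave small or uncertain differences. The gene of CD45 is not reported here. P2ry12 had a log2 fold change of 0.19 (SE 0.26), Itgam, which encodes CD11b, 0.54 (SE 0.34), and Aif1, which encodes Iba1, -0.37 (SE 0.39). Cx3cr1, the fractalkine receptor, was at 2612–3860.1 CPM with THC and at 2529, 2529 and 2924 CPM in 3 vehicle libraries, but at 346 CPM in vehicle replicate 14. Its log2 fold change was 0.56 with an SE of 1.62. None of these 4 genes had a p under 0.05 in limma.

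**Figure D4:**
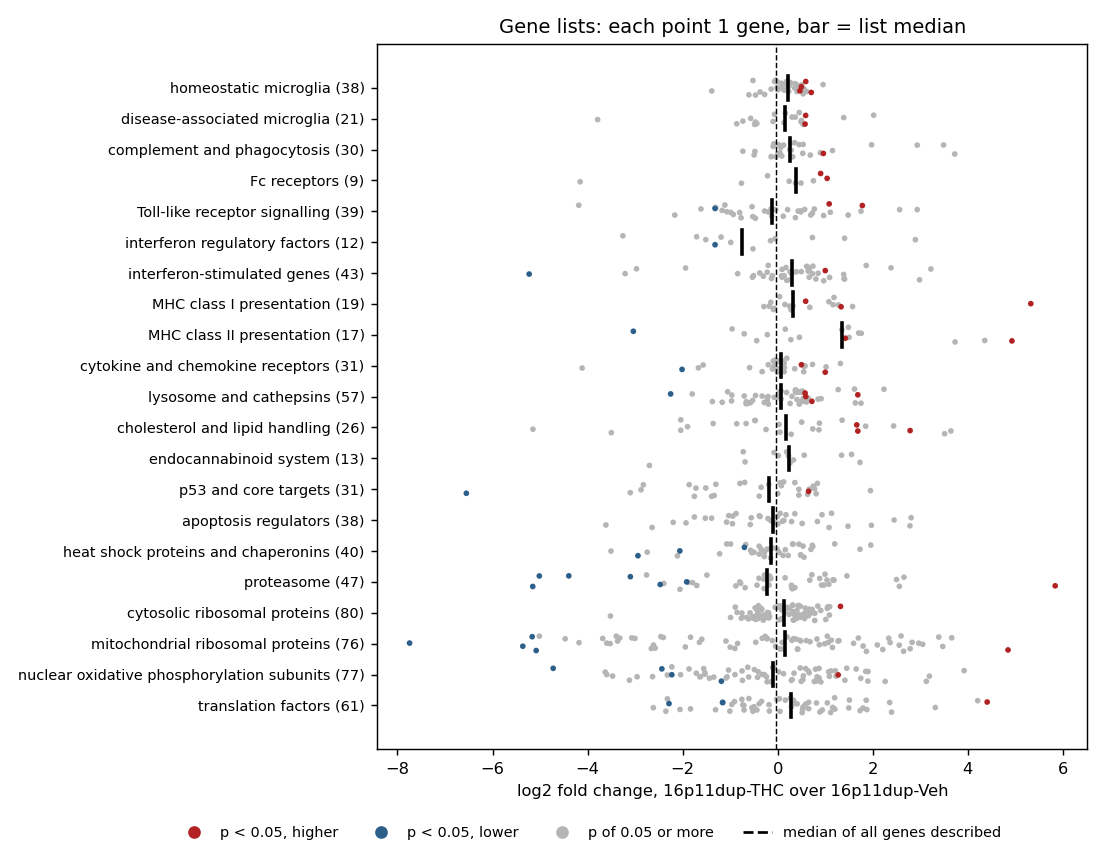
The log2 fold change of 16p11dup-THC over 16p11dup-Veh for every measured gene of 21 lists (number in brackets), with the list median as a black bar and the median of all 10178 genes as a dashed line. Red and blue points are genes higher or lower at an unadjusted p under 0.05. Most lists centre near the dashed line, with single genes far to either side.

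Of 9 measured Fc receptor genes 2 were higher and 0 lower, Fcgr3 and Fcgr1, against 1 and 0 with edgeR and 1 and 1 with DESeq2. Of 19 genes of class I presentation 3 were higher and 0 lower, against 1 and 0 with edgeR, 2 and 0 with DESeq2, and 1 and 0 without the covariate for mapped reads. H2-D1, a classical class I heavy chain, had 299.6, 309, 634 and 326 CPM with THC and 118, 265, 209 and 165 CPM with vehicle, without overlap (log2 fold change 1.33, SE 0.49, unadjusted p = 0.016, limma). Some counts of H2-D1 were divided with similar genes. B2m, the light chain, overlapped at 2680.4–3935 against 1951–4393 CPM. Of 17 class II genes 2 were higher and 1 lower, with a median log2 fold change of 1.35. Only 5 of those 17 were well expressed, and these had a median of 0.46. The median of the 17 was 0.48 without vehicle replicates 13 and 14 and 0.53 without the covariate for mapped reads. Cd86, the costimulatory ligand placed in that list, had 283, 815, 731 and 144 CPM with THC and 124–216 CPM with vehicle.

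Among 57 lysosomal genes 4 were higher and 1 lower, with a median of 0.07. Lamp2, a lysosomal membrane protein, was at 1097, 681, 965 and 779 CPM against 702, 417, 407 and 454 (log2 fold change 0.72, SE 0.24, unadjusted p = 0.0094, limma; 0.13 with edgeR and 0.11 with DESeq2). Lipa, which hydrolyses cholesteryl esters in lysosomes, had 442, 287 and 338 CPM in 3 THC libraries and 68.8 CPM in replicate 18, against 30.9–108 CPM. The aspartic protease gene Ctsd was at 5761–12152 against 4773–6374 CPM. Of 26 genes of cholesterol and lipid handling 3 were higher, Agmo, Lipa and Abcg1, and 0 lower, whereas DESeq2 had 3 higher and 2 lower. The sterol exporter Abcg1 had 316, 125, 877 and 329 CPM with THC and 65.8, 75.3, 78.4 and 205 CPM with vehicle (log2 fold change 1.66, SE 0.69).

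Of 30 measured genes of complement and phagocytosis 1 was higher and 0 lower in limma (3.33% against 6.05% of the 10178). In edgeR 1 was higher and 0 lower, in DESeq2 0 and 0. Of 30 genes of Trem2 and Tyrobp signalling, the list of Pik3cg and Cd47, 2 were higher and 1 lower (10%). There edgeR had 1 and 1 and DESeq2 1 and 2. C3ar1, the receptor for the complement fragment C3a, was at 563–921 CPM with THC and at 186–367 CPM in 3 vehicle libraries, with 823 CPM in vehicle replicate 12. The unadjusted p of C3ar1 was 0.014 in limma, 0.11 with edgeR and 0.15 with DESeq2. Pik3cg, a PI3 kinase coupled to G proteins, had 849.8, 521, 798 and 519 CPM against 516, 263, 503 and 273, a gap of a few CPM between the lowest THC and the highest vehicle library (log2 fold change 1.03, SE 0.36, unadjusted p = 0.013, limma; 0.077 with edgeR and 0.078 with DESeq2). Cd47, the "do not eat me" signal, was at 139.5–249 against 35.4–149 CPM. Its unadjusted p was 0.031 in limma, 0.12 with edgeR, 0.081 with DESeq2 and 0.054 in limma without the covariate for mapped reads. Arrb1, the β-arrestin that uncouples G protein receptors, was lower in 3 THC libraries, with 76.0, 56.2 and 55.9 CPM, and at 257 CPM in replicate 17, against 162–341 CPM (log2 fold change -1.21, SE 0.51), and its p was 0.05 or more with edgeR and DESeq2. Of 38 genes of G protein and cAMP signalling 0 were higher and 4 lower (10.5%) in limma, against 2 and 3 with edgeR and 1 and 5 with DESeq2. Their median log2 fold change was 0.02, with 20 above 0 and 18 below, and 0.04 for the 25 well-expressed ones. The lower genes in limma were Arrb1, Prkar2b, Pde4d and Pde7a, of which only Arrb1 was well expressed. Prkar2b had at most 0.0920 CPM with THC and 0 to 7.54 CPM with vehicle.

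Of 13 measured genes of the endocannabinoid system 0 had p under 0.05 in limma, while edgeR and DESeq2 each had 1 higher and 1 lower. In limma 9 were above 0, and the median log2 fold change was 0.23. Cnr2, the cannabinoid receptor of immune cells, had 21.1, 4.23, 16.3 and 218 CPM with THC and 64.3, 26.3, 0.413 and 4.29 CPM with vehicle. A single library was highest in each group, and the log2 fold change of 1.34 had an SE of 1.63. Cnr1 was not analysed here. Abhd12, a hydrolase of lysophospholipids and monoacylglycerols, had the smallest p of the list (log2 fold change 0.56, SE 0.31, unadjusted p = 0.097, limma).

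Of 38 apoptosis regulators 0 had p under 0.05 in limma, with a median of -0.09, against 0 higher and 1 lower with edgeR and 1 and 2 with DESeq2. Of 31 p53 genes 1 was higher and 1 lower (6.45%), and the median was -0.19. edgeR and DESeq2 each had 0 higher and 3 lower of them. The higher gene was Mdm4, an inhibitor of p53, at 169–373 against 125–257 CPM (log2 fold change 0.65, SE 0.30, unadjusted p = 0.047, limma; 0.39 with edgeR and 0.18 with DESeq2). The lower gene was Cdkn1a, the cell cycle inhibitor p21, which is not well expressed. It had 0.116, 12.04, 61.6 and 3.97 CPM with vehicle and no count in 3 THC libraries. Trp53 itself had 199, 171, 218 and 54.7 CPM with THC and 57.7, 75.7, 169.6 and 159.8 CPM with vehicle (log2 fold change 0.66, SE 0.61). In the list of cell cycle genes 0 of 30 were higher and 3 were lower (10% against 6.05%), Cdkn1a with Top2a and Mki67, none of them well expressed. edgeR had 0 higher and 4 lower of the list, DESeq2 0 and 5. In limma the counts were 0 and 2 without the covariate for mapped reads, and 0 and 1 without vehicle replicates 13 and 14. The 7 well-expressed genes of that list were all above 0, with a median of 0.55 and no call in limma. With THC, Top2a and Mki67 had at most 0.368 CPM. With vehicle, Top2a had 62.9, 4.49 and 9.64 CPM in replicates 12, 13 and 14 and no count in replicate 16.

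Among the 47 proteasome genes 1 was higher and 6 were lower, 14.9% against the 6.05% of all genes, while the median was -0.22. edgeR had 1 of them higher and 2 lower, DESeq2 2 higher and 4 lower. The 12 well-expressed members had a median of 0.52, with 8 above 0 and 4 below. This list was included because of earlier results from these same libraries. The well-expressed gene among the 6 lower was Psmc2, an ATPase of the regulatory particle, with 59.1, 51.7, 4.59 and 57.4 CPM against 77.5, 85.0, 112 and 151. The groups were apart, and THC replicate 20 was far below the rest (log2 fold change -1.91, SE 0.76, unadjusted p = 0.024, limma; 0.24 with edgeR and 0.063 with DESeq2). The other lower genes, named after their values were seen, were Psmd2, Psmd6, Psmd7 and Psmd12 of the same particle and the assembly chaperone Psmg1. Psmd7 had 3.74, 3.04, 0.735 and 6.63 CPM with THC and 104, 25.7, 29.2 and 92.6 CPM with vehicle. Psmd2 had 0, 3.41, 11.7 and 0.109 CPM against 158, 21.02, 63.1 and 25.2. Both pairs of groups were fully apart. The higher gene was Psmd13, also of the regulatory particle, with 0.802–24.8 CPM against 9.05 CPM in vehicle replicate 13 and no count in the other vehicle libraries. Without vehicle replicates 13 and 14 the list had 1 gene higher and 2 lower, and without the covariate for mapped reads 0 and 4.

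Among 76 mitochondrial ribosomal genes, of which 1 was well expressed, 1 was higher and 4 lower with a median of 0.14. In edgeR 1 was higher and 6 lower, in DESeq2 4 and 9. The median was -0.07 without the covariate for mapped reads and -0.51 without vehicle replicates 13 and 14. Among 77 nuclear genes for oxidative phosphorylation subunits 1 was higher and 4 lower with a median of -0.11, against 0 and 1 with edgeR and 2 and 4 with DESeq2. In the latter list Cox7c, of complex IV, was at 62.8–117 against 15.9–49.99 CPM, and Sdha, of complex II, at 34.9–134 against 138–411 CPM, with no overlap in either direction. The unadjusted p of Cox7c and Sdha was 0.038 and 0.045 in limma, 0.18 and 0.091 with edgeR, and 0.078 and 0.032 with DESeq2. They kept p under 0.05 in 12 and 10 of the 23 alternatives. Some recovered counts of Cox7c are not whole numbers. Heat shock and chaperonin genes had 0 of 40 higher and 3 lower, against 0 and 1 with edgeR and 1 and 4 with DESeq2. Of 65 splicing factors and hnRNPs 1 was higher, Hnrnpab, and 3 lower, including Hnrnpdl and Hnrnpm. Hnrnpdl was at 50.3–61.1 CPM in the THC libraries and at 190.5, 137, 175 and 59.6 CPM with vehicle.

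In the list of genes in or near the 16p11.2 region 1 of 23 measured genes was higher and 0 lower, with a median of 0.01, against 0 and 1 with edgeR and 0 and 2 with DESeq2. Higher in limma was Sult1a1, a sulfotransferase at 71.8–207 against 48.2–67.9 CPM (log2 fold change 0.96, SE 0.44, unadjusted p = 0.046, limma; 0.26 with edgeR and 0.084 with DESeq2). Whether Sult1a1 lies within the duplicated segment was not examined. Mapk3, which encodes ERK1, had 221, 21.8, 110.2 and 84.7 CPM with THC and 220.1, 126, 749.9 and 57.1 CPM with vehicle, with a log2 fold change of -1.74 (SE 0.89, unadjusted p = 0.070, limma). For Mapk3 edgeR and DESeq2 gave -2.32 and -2.30, both at an unadjusted p under 0.05, as did 8 of the 23 alternatives in all.

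The same THC comparison in wild-type mice shares no library with this one. In wild type 238 of the 10178 genes were higher (2.34%) and 216 lower (2.12%) at p under 0.05, together 4.46%. Of the 15 leading higher genes 12 had a wild-type fold change of the same sign, with a median of 0.27 in wild type and 2.50 in 16p11dup. Of the 15 leading lower genes 4 had the same sign, with medians of 0.27 and -2.23. Among all 126 well-expressed genes higher at p under 0.05, 62 had the same sign in wild type, with a wild-type median of -0.04. Of the 76 lower ones 33 did, with a wild-type median of 0.08. These genes were chosen by their 16p11dup p, which makes a smaller value in the other genotype likely, so the medians are a description. The difference between genotypes was tested for every gene as an interaction. No gene reached an FDR under 0.10 in limma, while 555 of the 10178 (5.45%) had an unadjusted p under 0.05, and edgeR and DESeq2 called 6 and 809 genes of the table at FDR under 0.10.

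**Figure D5:**
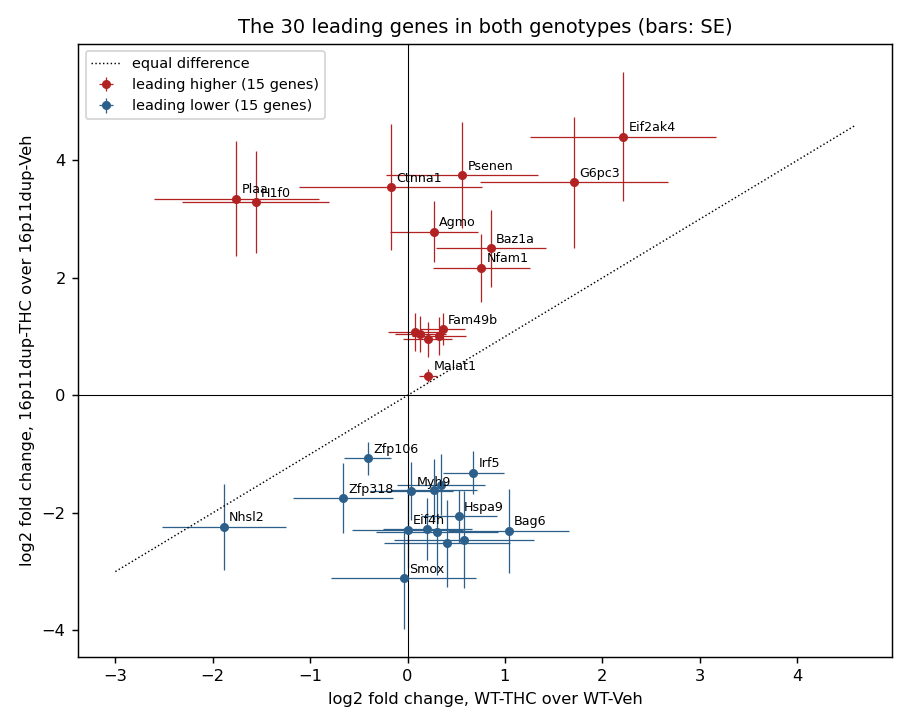
The log2 fold change of THC over vehicle in 16p11dup (vertical axis) against that in wild type (horizontal axis) for the 30 leading genes, with bars for the SE of each. Red points are the 15 leading higher and blue points the 15 leading lower genes, and the dotted line marks equal differences. Most points lie near 0 on the horizontal axis, with Eif2ak4, G6pc3 and Nhsl2 farther out in the same direction as in 16p11dup and H1f0 and Plaa in the opposite direction.

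Single genes differed in how the genotypes compared. Eif2ak4 was higher in both, with log2 fold changes of 4.41 (SE 1.10) in 16p11dup and 2.21 (SE 0.96) in wild type, and Nhsl2 was lower in both, with -2.23 (SE 0.73) and -1.89 (SE 0.64). Their interaction terms of 2.20 (SE 1.48, unadjusted p = 0.16, limma) and -0.35 (SE 0.98, unadjusted p = 0.73, limma) did not pass the test. Agmo differed in 16p11dup alone by p, with 0.27 (SE 0.45) in wild type and an interaction of 2.52 (SE 0.70, unadjusted p = 0.0027, FDR = 0.97, limma). H1f0 and Plaa had the opposite sign in wild type, at -1.56 (SE 0.76) and -1.76 (SE 0.85), with interactions of 4.85 (SE 1.17) and 5.11 (SE 1.31). Hspa9 and Irf5 were above 0 in wild type, at 0.53 (SE 0.39) and 0.67 (SE 0.31). The interaction of Irf5 was -1.99 (SE 0.49, unadjusted p = 0.00097, FDR = 0.97, limma). These genes were chosen by their 16p11dup p, and the 16p11dup difference is part of the interaction. Their interaction terms and p-values are therefore a description too. Mrpl20 had a wild-type log2 fold change of -3.34. Usp53 and Tub, with a count in 1 of the 8 libraries each, were outside the genes described here.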

How the data were processed

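RNA from sorted mPFC microglia was sequenced after low-input amplification, for which the paper names Smart-seq2 in its results and a Nugen Ovation kit in its methods. Alignment by the authors used STAR and GRCm38. They counted reads without strand with RSEM 1.3.0 and deposited log2 CPM in the voom form, with 0.5 counts added. The library sizes behind the CPM matched totals adjusted by TMM (trimmed mean of M-values), not raw totals. Raw totals were from 0.77 (vehicle replicate 13) to 1.36 (vehicle replicate 14) times those sizes. The expected counts behind these log2 values were recovered here, taking each library's minimum as 0 counts, and 94.4% of non-zero counts came out whole within 0.01. Counts of reads and mapped reads per library, as deposited by the authors, are whole numbers, and fractions of mapped and intronic reads were calculated by the authors from them. The authors also deposited 5 surrogate variables, which are scores. A further deposited column, other in unit because no source states it (rDNA), was not used. Another 4 libraries, which the study treated as outliers, were not used here.

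limma 3.58.1 was run on the deposited log2 CPM of 18 libraries with voom weights, with terms for the 4 groups and the mapped percentage. Tests were two-sided, with Benjamini-Hochberg adjustment over 22428 genes and a threshold of 0.10. A p under 0.05 is unadjusted. Mapped reads were 73.5–78.9% with THC and 76.6–78.5% with vehicle. Exact permutation tests used the 70 arrangements of 8 libraries. Genes named are well expressed and are the 15 with the smallest p in each direction, up to 6 per gene list with p under 0.05, and 14 fixed genes, of which 1 is not in the table used. The genes counted in a single group were named by mean level, at most 5 per direction. Other genes at low counts, and Abhd12, were named after their values were seen. A few genes meeting this rule are not reported here. Members, lists and tests were chosen with earlier results of these data known. Alternative tests were edgeR 4.0.16 and DESeq2 1.42.0 (rounded counts), other weights, covariates, scalings, filters and offsets, and fits without single libraries. The limma, edgeR and DESeq2 scripts were tested on simulated data. R 4.3.3, Python 3.11.15, pandas 2.3.3 and matplotlib 3.10.9 were used.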

Additional observations from a re-analysis of the deposited data

Results flagged for a closer look

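In 10 of 140 groups of 4 libraries, at genes named above, a single library stood apart from the other 3 by Dixon's criterion, applied to log2 CPM. Chance flags about 5% of such groups, and 7.14% were found. All values here are log2 CPM, with the range of the other 3 libraries. In the THC group, replicate 20 was highest at Fam49b with 9.14 against 8.25–8.37 and at H2-D1 with 9.31 against 8.23–8.35, and lowest at Psmc2 with 2.21 against 5.69–5.89. THC replicate 17 was highest at Anp32a with 6.32 against 4.08–4.15. THC replicate 18 was lowest at Syngr1 with 3.07 against 5.43–5.64 and highest at Cox7c with 6.87 against 5.97–6.05. THC replicate 21 was lowest at Itgam with 10.98 against 11.39–11.44. In the vehicle group, replicate 16 was highest at Zfp106 with 8.69 against 7.96–7.99 and at Abcg1 with 7.68 against 6.04–6.29, and replicate 14 was lowest at Cx3cr1 with 8.43 against 11.30–11.51. What set these libraries apart was not tested.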

How the results depend on the processing

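Over the 10178 genes, the count at unadjusted p under 0.05 was 616 and lay between 535 and 709 when each library was left out in turn. It became 1110 (478 higher, 632 lower) with DESeq2, 929 with 594 lower in a fit of the 8 libraries alone, and 160 (93 higher, 67 lower) when only well-expressed genes were fitted. Without vehicle replicate 13, 327 were higher and 310 lower, and without vehicle replicates 13 and 14, an alternative chosen after seeing the data, 289 and 262. The count of 0 at FDR under 0.10, taken over the 22428 genes of the table, became 17 with edgeR and 818 with DESeq2. Of these, 17 and 359 were among the 10178. In limma it became 1 with voom weights from the design, 2 with surrogate variables, 13 without vehicle replicates 13 and 14, and 0 to 4 without single libraries. The interaction gave 1156 genes at p under 0.05 with DESeq2, and 6 (edgeR) and 809 (DESeq2) at FDR under 0.10. The sign turned at Malat1 (-0.12 in the fit of 8 libraries, -0.16 when only genes counted in at least 4 of the 8 libraries were fitted), Cst3 (-0.21 with edgeR, -0.23 with DESeq2, -0.13 without weights and -0.13 with total counts) and, among genes without a call, Cx3cr1 (-1.13 with surrogate variables), P2ry12 (-0.029 with DESeq2, -0.042 without weights, -0.041 with surrogate variables, -0.059 to 0.31 without single libraries, lowest without THC replicate 20), Usp53 (0.41 with edgeR, 0.017 with DESeq2, 0.25 in the fit of 8 libraries, 0.41 without the covariate, 0.32 with intronic reads) and Tub (-0.24 in the fit of 8 libraries, -0.23 without the covariate, -0.12 with intronic reads). The cause was not tested. Of 62 named well-expressed genes with p under 0.05, 9 kept it in all 23 alternatives. No paired analysis was possible because the labels name no pairs of libraries between the groups.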
